A study of Rattus norvegicus with 4 samples.

Results

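Toll-like receptors and the proteins that serve them were measured in 4 cultures of NR8383, an alveolar macrophage line established from the lung lavage of a normal rat. The 10 genes are the receptor genes Tlr2, Tlr3, Tlr4, Tlr5, Tlr6, Tlr7 and Tlr9, the co-receptor genes Cd14 and Ly96, and the adaptor gene Myd88, and they were chosen by name as a family, with earlier results of these data known. All 10 were among the 16581 genes that had a named probe on the arrays. Every culture had been exposed for 4 h to carbon nanotubes functionalized with COOH groups, a material coded NRCWE042, at 6.8 cm2 of nanotube surface per cm2, after 20 passages. The study set exposed against unexposed cells; the 4 exposed cultures are the 1 group used here and unexposed cells were not analysed here, so no value below is an effect of the nanotubes. NR8383 is 1 established line, grown as a mixture of adherent and floating cells, and the labels call the 4 samples biological replicates without saying how the cultures were separated.

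Toll-like receptors recognise conserved molecules of microbes and some molecules released from damaged cells. Those for lipids, lipoproteins and flagellin act mainly at the cell surface, and those for nucleic acids act in endosomes. Tlr4 encodes the receptor for bacterial lipopolysaccharide, which is handed over by CD14 and bound by the receptor together with MD-2, the product of Ly96. TLR2 pairs with TLR1 or TLR6 to bind lipoproteins, and MyD88 is the adaptor through which all of these receptors except TLR3 signal to the kinases that activate NF-kB.

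The signal of a probe is the intensity of its spot after the scanner software's background correction. Its level is the log2 of that signal minus the 75th percentile of the same array's sample probes, so a level of 0 is the brightness of the probe at that percentile. The percentile lay at 128, 131, 98.5 and 49.0 intensity units on replicates 1 to 4, and the array of replicate 4 was the dimmest, with 31.1% of its probes well above background against 35.3% to 38.8% on the others. A gene was taken as detected when the software marked a probe of it as well above background on all 4 arrays. Of the macrophage markers 9 of 11 measured were detected, with Marco and Adgre1 on no array. Markers of other cells were detected in 0 of 7 cases for neutrophils, 2 of 4 for B cells, 3 of 6 for T cells, 1 of 4 for dendritic cells, 0 of 8 for lung epithelium, 1 of 6 for fibroblasts and 3 of 6 for endothelium. None of the probes of the 10 genes lay in an area of locally shifted signal on any array, and none of their spots was saturated or marked as an outlier. Probes differ in affinity, so a level is compared between arrays and never between genes.

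Of the 10 genes, 6 were detected on all 4 arrays: Tlr2, Tlr4, Tlr6, Cd14, Ly96 and Myd88. The share so detected among all measured genes was 44.4%. Tlr3, Tlr5 and Tlr9 were well above background on no array, as were 46.1% of all measured genes, and Tlr7 was so on 3 arrays. Among the 10, the receptor genes detected were those for lipopolysaccharide and lipoproteins, with both lipopolysaccharide co-receptors and the shared adaptor. Tlr1, a lipoprotein receptor gene outside the 10, was well above background on no array. Tlr3, Tlr7 and Tlr9 have 1 probe each and carried the software's weaker mark, described below, on all 4 arrays. No pattern by ligand is drawn from these counts. The 3 receptors for nucleic acids among the 10, and the flagellin receptor, did not reach detection on every array. In these bulk samples a smaller share of cells with a transcript and less transcript per cell cannot be told apart.

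**Figure D1:**
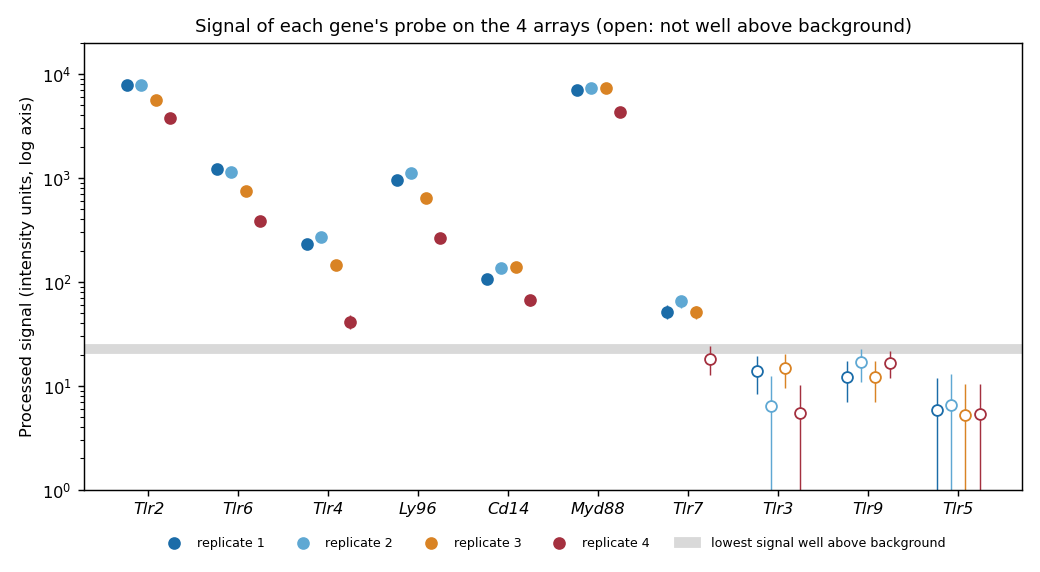
Processed signal (intensity units, log axis) of the probe used for each of the 10 genes on the 4 arrays. Filled points were well above background and open points were not, vertical bars are the scanner software's error of the spot (they leave the axis where the error is about as large as the signal), and the grey band spans the lowest signal that any probe well above background had, 20.8 to 24.6 over the arrays. Tlr4 on replicate 4, at 41.4, is the point of the 6 detected genes nearest to the band.

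Tlr2 encodes the receptor for bacterial lipoproteins. Its probe read 7757, 7920, 5669 and 3794 intensity units on replicates 1 to 4, with a software error of the spot between 379 and 792. As levels these were 5.92, 5.92, 5.85 and 6.27, a mean of 5.99 ± 0.19 (SD, n = 4 arrays, as for all levels below). Replicate 4 had the dimmest signal and the highest level because that array's 75th percentile was low, and the other 3 arrays lay close together.

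Tlr6, whose product pairs with TLR2, has 3 probes on the array. The brightest read 1216, 1141, 744 and 387 units, which gave levels of 3.25, 3.12, 2.92 and 2.98 and a mean of 3.07 ± 0.15. The second probe gave 1.81, 1.89, 1.55 and 1.43 (1.67 ± 0.22), and both were well above background on all arrays. The dimmest probe gave -0.26, -0.23, -0.48 and -1.14, and on replicate 4 it was not well above background (22.2 units, error 5.22). The 3 probes placed replicates 1 and 2 above replicates 3 and 4 alike, but differed in how low replicate 4 lay, by up to 0.53 between the shifts of the brightest and the dimmest probe.

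Tlr4, the lipopolysaccharide receptor gene, spread over more than 1 log2 unit. Its probe read 232, 267, 144 and 41.4 units on replicates 1 to 4, with errors of 23.8, 27.3, 15.3 and 6.13. The levels were 0.86, 1.03, 0.55 and -0.24, a mean of 0.55 ± 0.56, and they span 1.27 log2 units or 2.42-fold. Replicate 4 was the low one, and the other 3 arrays lay above 0. Among the 7363 detected genes 93.2% had a smaller SD. With the detected genes cut into 4 equal classes by mean level, Tlr4 and Cd14 lay in the lowest. The median SD was 0.29 in that class and 0.24 in each of the others. Tlr4 was the 1 detected gene of the 6 with an SD above 0.5, beside 11.6% of all detected genes, and the 1 with an array more than 1 log2 unit away from the remaining arrays' median, beside 8.88% of all detected genes. Before any background correction the spot's median intensity was 284, 331, 220.5 and 99.5 over a local background of 31.0 to 36.0; these raw values also carry the brightness of the whole array. Tlr4 had the largest SD of the 6 detected genes as reported, but not without replicate 4, where it was 0.24 against 0.38 for Cd14, nor under normexp background correction, where it was 0.38 against 0.43 for Ly96.

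Ly96 encodes MD-2, which binds lipopolysaccharide on the receptor. It has 2 probes, and both were well above background on all arrays. The brighter read 950, 1111, 645 and 263 units and gave levels of 2.89, 3.09, 2.71 and 2.42 (2.78 ± 0.28). The other gave 2.70, 2.89, 2.48 and 2.21 (2.57 ± 0.30). Measured against its own mean, each probe repeated the other to within 0.02 on every array, and both were lowest on replicate 4.

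Cd14 encodes the surface protein that hands lipopolysaccharide to the receptor. Its probe was dim, at 107, 137, 140 and 66.3 units with errors of 12.0, 15.0, 14.9 and 8.14. The levels were -0.25, 0.07, 0.51 and 0.44, a mean of 0.19 ± 0.35, and 69.2% of the detected genes had a smaller SD. Replicate 1 was the low one and replicate 3 the high one.

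Myd88, the adaptor gene, read 6995, 7281, 7393 and 4320 units. Its levels were 5.77, 5.80, 6.23 and 6.46, a mean of 6.07 ± 0.34, and 66.3% of the detected genes had a smaller SD. Replicates 3 and 4 lay above replicates 1 and 2.

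Over the 6 detected genes the median SD was 0.31, against 0.25 over all 7363 detected genes. Without replicate 4 both medians were lower. They were 0.193 over the 7 genes of the family then detected, which include Tlr7, and 0.1965 over all genes then detected. For the 6 genes the SD was then 0.04 (Tlr2), 0.17 (Tlr6), 0.19 (Ly96), 0.24 (Tlr4), 0.26 (Myd88) and 0.38 (Cd14). With 4 arrays the 95% interval of a mean level reached 0.24 each way for Tlr6, 0.31 for Tlr2, 0.45 for Ly96, 0.54 for Myd88, 0.56 for Cd14 and 0.90 for Tlr4. These intervals hold the spread over arrays and not the choice of processing. Under normexp background correction the mean level was 5.00 for Tlr2, 2.22 for Tlr6, 2.11 for Ly96 and 5.19 for Myd88. It was 0.43 for Tlr4 and 0.13 for Cd14. With the mean of all its probes Tlr6 had a mean level of 1.40.

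The windows before the start sites of 4 of the genes are shown for comparison: Tlr4 and Myd88, which lay at opposite ends on replicate 4, Tlr6, which was also detected, and Tlr9, which was not detected. They are the 250 bases before the start in RefSeq on GRCr8, in the direction of the gene. Capitals mark matches on either strand to 6 motifs: the PU.1 core GAGGAA, AP-1 (TGANTCA), the CRE half-site TGACG, an IRF half-site GAAANNGAA, the TATA box TATAAA, and the NF-kB consensus. PU.1 is a transcription factor of myeloid cells, and AP-1, IRF and NF-kB factors act downstream of Toll-like receptors.
Tlr4 (chr5:85160997-85161246, plus strand): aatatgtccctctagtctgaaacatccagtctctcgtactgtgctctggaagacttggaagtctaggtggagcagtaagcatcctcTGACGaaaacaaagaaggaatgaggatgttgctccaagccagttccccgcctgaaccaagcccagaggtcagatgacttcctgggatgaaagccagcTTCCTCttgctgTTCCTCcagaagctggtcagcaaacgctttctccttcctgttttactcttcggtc
Tlr6 (chr14:43715559-43715808, plus strand): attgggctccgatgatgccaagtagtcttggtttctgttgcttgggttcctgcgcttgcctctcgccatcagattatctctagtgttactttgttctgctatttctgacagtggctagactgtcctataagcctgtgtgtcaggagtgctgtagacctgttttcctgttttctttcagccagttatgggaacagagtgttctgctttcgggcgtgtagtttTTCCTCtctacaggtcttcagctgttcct
Myd88 (chr8:127956231-127956480, minus strand): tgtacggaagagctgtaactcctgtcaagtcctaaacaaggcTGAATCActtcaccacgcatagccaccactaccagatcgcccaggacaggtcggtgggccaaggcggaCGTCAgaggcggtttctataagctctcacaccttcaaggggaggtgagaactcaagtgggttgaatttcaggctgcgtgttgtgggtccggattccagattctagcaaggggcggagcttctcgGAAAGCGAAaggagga
Tlr9 (chr8:115743157-115743406, plus strand): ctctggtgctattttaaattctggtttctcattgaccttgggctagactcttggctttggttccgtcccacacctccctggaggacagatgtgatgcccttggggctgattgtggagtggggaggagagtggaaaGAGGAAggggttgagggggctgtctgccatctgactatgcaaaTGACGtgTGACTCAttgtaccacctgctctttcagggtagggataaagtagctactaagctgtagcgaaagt

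The Tlr4 window held 2 PU.1 cores, which begin 67 and 55 bases before the start, and 1 CRE half-site. The Tlr6 window held 1 PU.1 core and the Tlr9 window 1, next to an AP-1 and a CRE half-site match. The Myd88 window held no PU.1 core, and had an AP-1, a CRE half-site and, 16 bases before the start, an IRF half-site match. None of the matches shown overlapped another. Windows were at hand for 9 of the 10 genes, and 6 of the 9 held a PU.1 core. The start used lay at the edge of the annotated gene for 5 of the 9. For Tlr2, Tlr5, Tlr7 and Cd14 it did not, and their windows lie wholly or partly inside the gene. That of Tlr5, at chr13:97182910-97183159, lies far inside a gene that begins at 97166430. Of the windows not printed, Tlr2 held 1 NF-kB match, Cd14 held 2 PU.1 cores, Tlr3 and Tlr7 held 1 PU.1 core each, and Tlr5 held none of the 6 motifs. Over 33469 windows of this length 23.3% held the PU.1 core, 6.3% the AP-1, 18.2% the CRE half-site, 8.1% the IRF half-site, 12.9% the TATA box and 4.2% the NF-kB motif. A match describes the letters in the window and does not show a bound site.

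With levels scaled to the 75th percentile, the 6 detected genes did not all shift to the same side on any array. Under spike-in scaling all 6 lay above their own means on replicates 1 and 2, and below them on replicate 4. Under median scaling all 6 lay above on replicates 2 and 3, and below on replicate 4. Relative to its own mean over the arrays, replicate 4 was at -0.79 for Tlr4, -0.36 for Ly96 and -0.09 for Tlr6, and at 0.40 for Myd88, 0.28 for Tlr2 and 0.25 for Cd14; the 3 positive shifts turn negative under spike-in and median scaling. Tlr4 and Ly96 had their lowest level there, as 29.6% of all detected genes did, and Tlr2 and Myd88 their highest, as 46.4% did. On replicate 1 the shifts were 0.31 for Tlr4 and 0.12 for Ly96, against -0.44 for Cd14 and -0.29 for Myd88, which under spike-in scaling were 0.04 and 0.19. The median shift of the 6 was 0.02, -0.01, -0.03 and 0.08 on replicates 1 to 4, and that of all detected genes was -0.07, -0.07, 0.06 and 0.10. These medians lie near 0 because the 6 genes moved to either side.

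**Figure D2:**
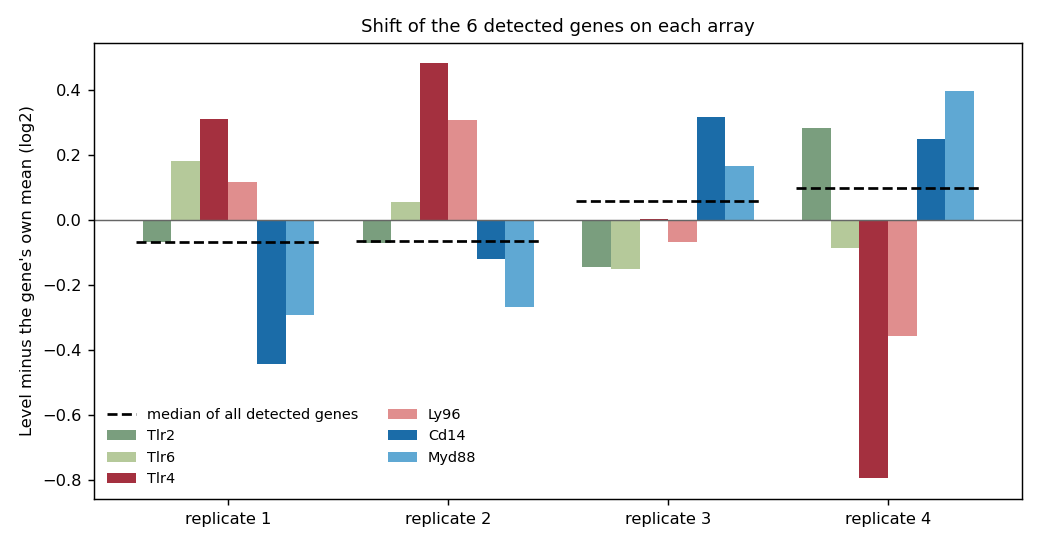
Shift of the 6 detected genes, that is the level on an array less the 4-array mean of that gene (log2), one bar per gene on each array, with the median of all 7363 detected genes as a dashed line. On replicate 4 Tlr4 (-0.79) and Ly96 (-0.36) are below 0 and Myd88 (0.40), Tlr2 (0.28) and Cd14 (0.25) above it; under spike-in scaling all 6 are below 0 there.

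The choice of scaling sets part of this, because the arrays differ in brightness. Tlr4 and Ly96 were lowest on replicate 4 under each other scaling, under quantile normalization and normexp, and with any other array left out. Cd14 lay below its own mean there under spike-in and median scaling, and Tlr2 and Myd88 under those and normexp. A shift relative to the median of all detected genes on the same array is the same by construction under any scaling by 1 number per array, so normexp and quantile normalization are the settings of the signal that can move it. On replicate 4 it was -0.89 for Tlr4, -0.455 for Ly96 and -0.19 for Tlr6, and -0.39, -0.48 and -0.30 under normexp and -0.84, -0.44 and -0.19 under quantile normalization. It was 0.18 for Tlr2, 0.15 for Cd14 and 0.30 for Myd88, and 0.09, 0.27 and 0.11 under normexp and 0.12, 0.23 and 0.22 under quantile normalization. The direction of these 6 shifts was thus kept, while the sizes for Tlr4 and Myd88 were less than 0.5 of the reported ones under normexp. The array of replicate 4 was also the one with the least sample signal for its spike-ins, at -1.35 log2 units relative to replicate 1, and its part in the differences between genes was not tested. With the detected genes cut into 4 equal classes by mean level, the median shift on that array was 0.08 in the lowest class, which holds Tlr4 and Cd14, 0.01 in the next, 0.09 in the class of Ly96 and Tlr6, and 0.21 in the highest, which holds Tlr2 and Myd88.

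A difference between 2 genes on the same array does not depend on any scaling by 1 number per array. The difference of Tlr4 and Cd14, measured from its mean over the arrays, was 0.75, 0.60, -0.32 and -1.04 on replicates 1 to 4. The signal of the receptor gene relative to that of the co-receptor gene thus spanned 3.47-fold from the highest to the lowest array, and 2.10- to 3.59-fold under the other settings, the smallest without replicate 4. Tlr4 and Myd88 gave 0.60, 0.75, -0.16 and -1.19, a span of 3.83-fold or 1.94 log2 units, which was 0.91 without replicate 4 and 0.89 under normexp. Ly96 and Cd14 gave 0.56, 0.43, -0.38 and -0.60, a span of 2.24-fold (1.92- to 2.42-fold under the other settings). Tlr4 and Ly96, the 2 parts of the lipopolysaccharide receptor, spanned 1.55-fold, and 1.09-fold either without replicate 4 or under normexp. Spans of like size were found for Tlr2 with Tlr6 (1.54-fold) and Tlr2 with Myd88 (1.45-fold), and Tlr4 with Tlr2 spanned 3.09-fold. Cd14 and Myd88 spanned 1.23-fold (1.23- to 1.32-fold under the other settings). The software's error of a spot was 6.13 of 41.4 units for Tlr4 and 8.14 of 66.3 units for Cd14 on replicate 4, their dimmest readings. With 1 array per culture, the spread between cultures and between arrays cannot be told apart.

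**Figure D3:**
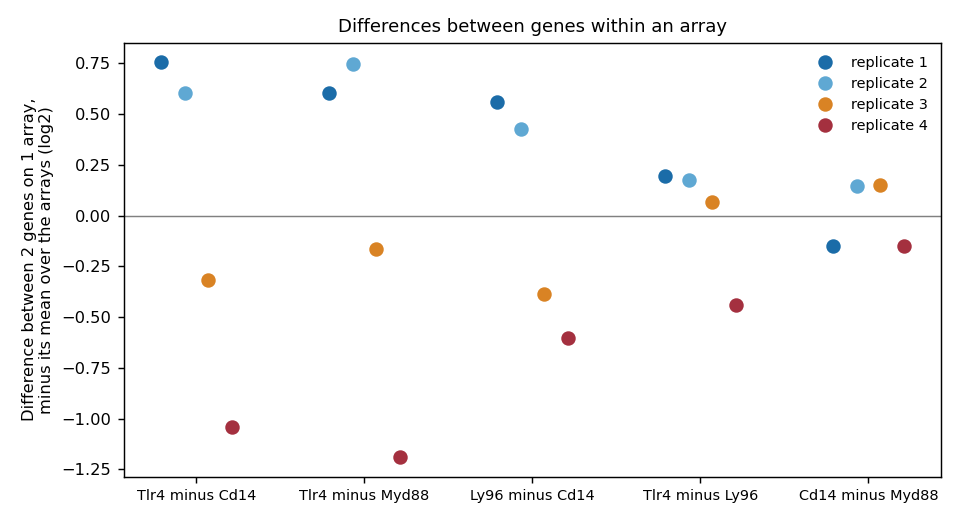
Difference between the levels of 2 genes on each array, minus the mean of that difference over the 4 arrays (log2), for 5 pairs of the detected genes, one point per array. The pairs of Tlr4 with Cd14, Tlr4 with Myd88 and Ly96 with Cd14 spread over 1.16 to 1.94 log2 units. The pair of Cd14 and Myd88 spread over 0.30.

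**Figure D4:**
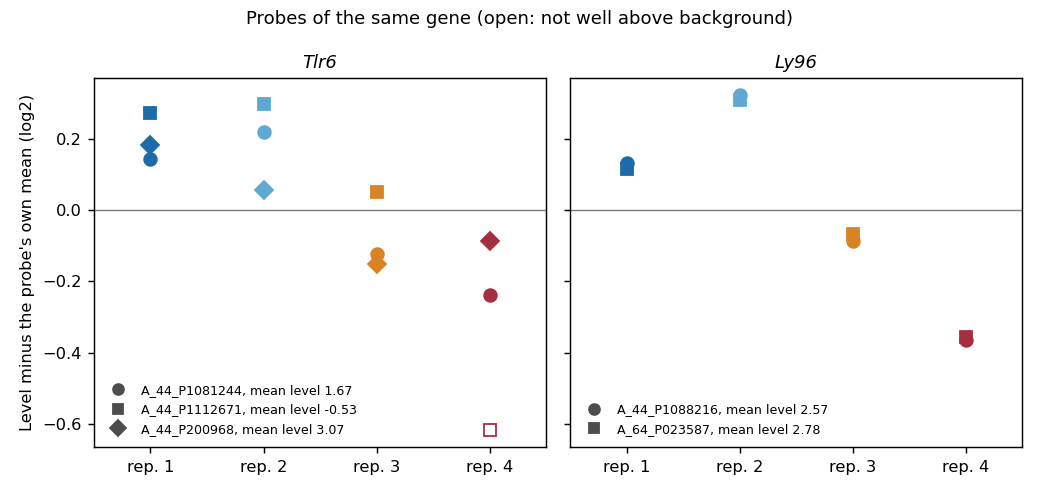
Level of each probe of Tlr6 (3 probes) and of Ly96 (2 probes) minus that probe's own mean over the arrays (log2), by replicate, with open points where the probe was not well above background. The 2 Ly96 probes coincide to within 0.02 on every array, and the shifts of the brightest and dimmest Tlr6 probes lie 0.53 apart on replicate 4.

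For each detected gene the 2 other detected genes with the closest profile over the 4 arrays were sought, by the root mean square difference of their shifts. Nearest to Tlr4 were Sec22a, at 0.034 log2 units, and Rnf139, at 0.035. Nearest to Ly96 were Pcmtd2 and Fra10ac1, to Cd14 Rab1b and Alkbh5, to Myd88 RT1-CE5 and Gnptg, to Tlr2 Ssx2ip and Rps12, and to Tlr6 Ncor1 and Pip4k2a, all at 0.026 or less. How common a profile was differed: 25 of the 7363 detected genes lay within 0.1 of Tlr4, 78 of Cd14, 276 of Tlr2, 577 of Tlr6, 634 of Ly96 and 1008 of Myd88. Profiles of 4 arrays hold little information, and the likeness is a description without a test.

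The 4 genes that were not detected on all arrays differed in how close they came. Tlr7, an endosomal receptor for single-stranded RNA, read 51.8, 64.8 and 51.4 units on replicates 1 to 3, where it was well above background. On replicate 4 it read 18.3 units (error 5.70), below the 20.8 units of the dimmest probe that was well above background on that array. Its levels were -1.30, -1.01, -0.94 and -1.42, with an SD of 0.23 beside the median of 0.25 over the detected genes, and it counts as detected at 3 of 4 arrays or without replicate 4.

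Tlr9, the endosomal receptor for unmethylated CpG DNA, read 12.2, 16.8, 12.2 and 16.7 units with errors of 4.73 to 5.83. These signals were above the 95th percentile of the 308 negative control spots on every array (5.45 to 7.33 units) and below the brightest negative control spot (17.7 to 114 units). Tlr3, the endosomal receptor for double-stranded RNA, read 13.8, 6.39, 14.9 and 5.44 units with errors of 4.68 to 5.92. It lay above that percentile of the negative controls on replicates 1 and 3, and not on replicates 2 and 4. On all 4 arrays both genes carried the software's weaker mark, for a signal that is positive and significant against background.

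Tlr5, the flagellin receptor gene, read 5.91, 6.48, 5.20 and 5.38 units, with errors of 5.94, 6.50, 5.23 and 5.12 units, and the median negative control spot read 4.58 to 5.68 units. It carried the weaker mark on replicate 4 alone. These readings concern 1 probe per gene, and do not show that the transcripts were absent.

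In the other parts of the pathway, 62 of 95 measured genes (65.3%) were detected on all 4 arrays, beside 44.4% of all measured genes. The lists were drawn up by function and with earlier results of these data known. Of the 5 other Toll-like receptor genes measured, none was well above background on all 4 arrays: Tlr1, the other partner of Tlr2, Tlr10 and Tlr11 were so on no array, and Tlr8 and Tlr12, named after their values were seen, on 3. Of the genes for receptor accessory and trafficking proteins 10 of 12 measured were detected. Lbp, which encodes the plasma carrier of lipopolysaccharide, and Cd180 were on no array. No named probe was at hand for Unc93b1. Cnpy3, a chaperone of the receptors, read 4.93, 4.92, 5.63 and 5.99. The chaperone gene Hsp90b1 (2.89 ± 0.64) and the endosomal transporter gene Slc15a4 (2.33 ± 1.62) were lowest on replicate 3. The probes of both lie in an area of locally shifted signal on some array.

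Of the adaptors with a TIR domain, or bound to one, 2 of 3 measured were detected: Ticam2, the bridge from TLR4 to the interferon branch, at 1.18, 1.11, 0.81 and 0.68, and Pik3ap1 at 1.72, 1.57, 2.01 and 1.98. Sarm1 was on no array, and no named probe was at hand for Tirap and Ticam1. Of the kinases and ubiquitin enzymes that act on MyD88's complex or after it 11 of 15 were detected. Ikbke read 1.72, 1.61, 2.17 and 2.58 and Tab1 had a mean of 3.25 ± 0.43, while Map3k8 read 2.86, 2.92, 2.51 and 2.22. Peli2 was on no array, and Irak4, Tbk1 (2 arrays each) and Traf6 (3 arrays), named after their values were seen, were not well above background on all.

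All 9 measured genes of the IKK and NF-kB list were detected, and Nfkbia (4.81 ± 0.55), Rela (3.24 ± 0.53) and Nfkbie (2.37 ± 0.51) had the widest range; Nfkbia and Nfkbie encode inhibitors of NF-kB and Rela a subunit of it. Of the interferon regulatory factors 5 of 6 were; Irf8, whose probe lies in an area of locally shifted signal on at least 1 array, was on none. Irf5, which acts with MyD88, read 5.13, 5.08, 5.69 and 5.85, Irf3, which serves TLR3 and TLR4, read 4.63, 4.57, 5.13 and 5.49, and Irf1 had a mean of 3.39 ± 0.21. Of the negative regulators 8 of 11 were detected, Sigirr and Il1rl1 on no array. Zc3h12a (1.43 ± 0.56), Nlrx1 (4.60 ± 0.50) and Trafd1 (5.77 ± 0.39) had the widest range. Of the mediators that Toll-like receptors are known to induce 12 of 24 were detected, and the widest range was that of Tnf (6.64 ± 0.48), the chemokine gene Ccl4 (7.36 ± 0.47) and Icam1 (5.51 ± 0.43). Il10, Il12a, Il12b, Cxcl1, Cd80 and Cd86 were among 8 on no array. The probe of Il12b, like that of Irf8, lies in an area of locally shifted signal on at least 1 array.

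Of the interleukin 1 receptor family, which also signals through MyD88, 1 of 4 was detected: Il1rap, the shared co-receptor gene, at 1.31, 1.28, 1.15 and 0.93. Il1r1, Il18r1 and Il1rl2 were on no array. Of other receptors for microbial molecules 4 of 6 were detected. Clec7a, which encodes the beta-glucan receptor dectin-1, read 6.63, 6.81, 6.03 and 5.74, Nod1 read 4.68, 4.60, 5.10 and 5.47, and Sting1 read 0.12, 0.18, 0.75 and 0.87. No named probe was at hand for Nod2.

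**Figure D5:**
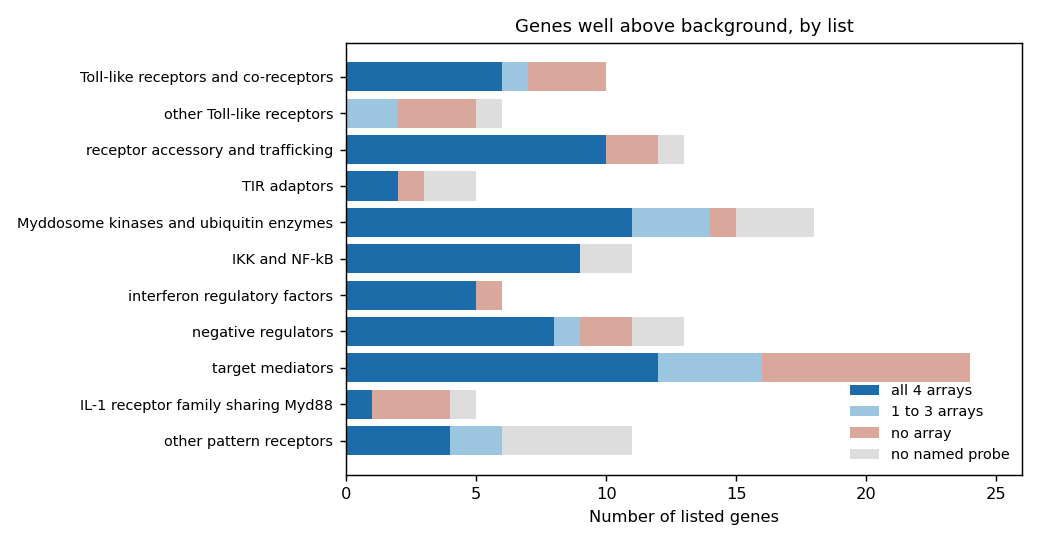
Number of listed genes that were well above background on all 4 arrays, on 1 to 3, on none, or without a named probe, for the 10 Toll-like receptor and co-receptor genes and 10 lists of related genes. The IKK and NF-kB list has all 9 measured genes detected, and the list of other Toll-like receptors has 0 of 5.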

How the data were processed

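RNA of 4 cultures was labelled with Cy3 and hybridised to 1 array each. The authors deposited scanner tables of spot intensity on a linear scale, made with Agilent Feature Extraction 11.0.1.1 per the file headers and the submitters' processing notes. Its processed signal is background-corrected and detrended within the array, and not normalized between arrays. The software's error of each spot and, for an alternative, the raw spot and background medians (in place of means) were used too. Spots marked as outliers were left out, spots of a probe averaged, and the array's 75th percentile subtracted on the log2 scale. Gene names come from matching each probe's accession to RefSeq on GRCr8, which named 21109 of 45598 probes. Probes are not placed on the genome, since the files' own build is older. A gene with several probes took the brightest among those detected on most arrays. A probe was detected when over 50% of its spots were marked.

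With 1 group there is no comparison of conditions and no test; values are given with the SD over 4 arrays. Each array is 1 culture as far as the labels say, so the SD may hold technical spread, and arrays give no read depth. The number of arrays limits the precision. The members and the lists were chosen with earlier results of these data known. Per pathway list, the rule named up to 6 genes on no array, in alphabetical order, and the 3 detected genes with the widest range. Other genes named were chosen after their values were seen. The steps that give the SD, the shift and the distance of an array from the others were tested on simulated data. The list counts were not. Alternatives changed the background correction (normexp, offset 50), the scaling, the choice of probe, the detection mark, the handling of spots, and the arrays kept. Python 3.11.15, pandas 2.3.3 and numpy 2.4.6 were used, with R 4.3.3 and limma 3.58.1 for normexp.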

Additional observations from a re-analysis of the deposited data

Results flagged for a closer look

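The level of Tlr5 on replicate 4, at -3.19, lay far above its levels on the other 3 arrays (-4.44, -4.34 and -4.24). No array had this probe well above background. Its signal was 5.91, 6.48, 5.20 and 5.38 units on replicates 1 to 4, and the 75th percentile that was subtracted was 128, 131, 98.5 and 49.0 units. The gap to the nearest array was 0.85 of the whole range for Tlr5, and 0.82 for Tlr2 and 0.77 for Tlr9, each also highest on replicate 4. A gap like that of Tlr5 arises by chance in about 1 in 20 sets of 4 values, and 10 genes were screened.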

How the results depend on the processing

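Detection counts, SDs, shifts, mean levels and 5 pairs of genes were recomputed under 15 alternative settings, 1 choice at a time. The nearest profiles, the ranks of SD, the level classes, the gaps, the values of pathway genes and the other pairs were not. The count of detected genes among the 10 was 6 under 11 of the 15 settings. It was 5 with all probes of a gene required, 9 with the weaker mark, and 7 with 3 of 4 arrays or without replicate 4. The 62 detected pathway genes became 54 to 72. Background correction, scaling and the averaging of probes do not enter the detection mark, so those settings could not change these counts. The median shift of the detected genes on replicate 4, 0.08 as reported, was -0.235 under normexp background correction, -0.37 with median scaling and -0.78 with spike-in scaling. Spike-in scaling also gave 0.51 and 0.59 on replicates 1 and 2, and a median SD of 0.67 in place of 0.31. Under it the median shift over every detected gene was 0.41, 0.53, -0.16 and -0.76 on the 4 arrays. The cause of the change under normexp was not tested. With each array left out in turn the median SD of the genes then detected ranged from 0.193 to 0.34. The lowest was without replicate 4, over 7 genes including Tlr7, where that of all detected genes was 0.1965. Of the 5 pairs of genes recomputed under the settings, Tlr4 relative to Ly96 on replicate 4 against replicate 1 turned under normexp, to 0.10 in place of -0.63. No paired analysis was possible because the samples form 1 group. Signal near background limits Tlr3, Tlr5, Tlr7, Tlr9 and the Tlr4 reading on replicate 4. The differences within an array were added after the data were seen.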
